A study of Mus musculus with 60 samples.

Results

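The comparison described here is that of mouse livers taken 4 h after a partial hepatectomy (PHx, surgical removal of part of the liver) done in the morning with livers taken 4 h after a PHx done at night. It holds 6 of the 60 libraries of the series, 3 after morning PHx and 3 after night PHx, chosen by the operation, the hour and the time of day in their labels. The mice were 8-week-old C57BL/6 males with no genetic alteration or other treatment named, 3 mice per group. The morning operations were done at 8 to 9 am and the night operations at 8 to 9 pm. PolyA RNA of the remaining liver was sequenced. Beside these, 2 further pairs of groups of 3 libraries are used for comparison, from the same kind of mice and hours of operation. They are livers 4 h after a sham operation (surgery without resection) and livers 24 h after PHx, each after a morning or a night operation. Livers taken 4 h after a morning and after a night operation were also taken at opposite times of day, so the hour of the operation and the hour of sampling cannot be told apart.

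The reads behind the values numbered 24.9, 27.0 and 25.4 M in the morning libraries and 30.1, 28.4 and 30.6 M in the night libraries. Values are given as scaled TPM, that is read counts per gene length, brought to a common library total with TMM factors, so that levels can be compared between libraries and between genes. Fold changes are log2 differences, morning minus night, of scaled TPM + 1, which makes the change of a weakly expressed gene look smaller than it is. Albumin (Alb), the main secreted protein of hepatocytes, was at 49830, 45590 and 56210 scaled TPM in the morning libraries and 46880, 42720 and 52620 in the night libraries. The tissue label therefore matched its defining marker in every library. Morning replicate 3 stood apart in carrying transcripts of pancreatic acinar cells. The summed value of 15 acinar genes in the authors' time course table of the same livers was 9822 in morning replicate 3, against 25.2 and 34.3 in morning replicates 1 and 2. Cela1, the 1 acinar gene of the morning and night table, was at 10.7, 11.3 and 1191 scaled TPM in the morning libraries and 10.7, 9.30 and 6.84 in the night libraries. The library IDs in the labels place night replicate 3 on another flow cell than the other 5 libraries. Medians of lists and values of single genes that move strongly without morning replicate 3 or without night replicate 3 are also given without them.

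The circadian clock of a cell is a loop of transcription and translation. The factors CLOCK or NPAS2, each paired with BMAL1 (the product of Arntl), bind E-box motifs and switch on the Per and Cry genes, whose proteins then repress those same factors. A second loop of REV-ERB (Nr1d1, Nr1d2) and ROR receptors sets the rhythm of Arntl and Npas2, and outputs such as the PAR bZIP factors Dbp, Tef and Hlf carry it on to liver metabolism. In liver, feeding also sets the time of many clock outputs and of lipid metabolism.

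The E-box, CACGTG, reads the same on both strands and was searched in the 250 bases before each RefSeq gene start (GRCm38.p6). Of 32 clock genes listed, 27 matched the promoter table, with 37 promoters, and 8 promoters of 7 genes held an E-box. These were Bhlhe41, Ciart, Cry1, Lonrf3, Per1, Tef and Tspan4. Per2 was not among the 27, so its promoter was not searched for this or the motifs below. Of all 32851 promoters, 6.02% held one. A D-box (TTATGTAA or TTACGTAA, both strands) was found in Per3 alone of the clock genes and in 0.931% of all promoters. A ROR element (TAGGTCA or TGGGTCA, both strands) was found in Nfil3 alone and in 5.38% of all promoters. A match describes the letters of the window and is not evidence of binding. The stretches around the E-boxes of Cry1, Ciart and Tef are printed because these 3 genes were called lower after morning PHx. Each is given on the strand of its gene, 5′ to 3′, with the E-boxes in capitals. Cry1 lies at chr10:85185065-85185164 (minus strand), with its E-box beginning 60 bases before the gene start. Ciart lies at chr3:95882259-95882358 (minus strand), with 3 E-boxes at 116, 58 and 44 bases before the start. Tef lies at chr15:81802496-81802595 (plus strand), with its E-box at 127 bases before the start.
Cry1: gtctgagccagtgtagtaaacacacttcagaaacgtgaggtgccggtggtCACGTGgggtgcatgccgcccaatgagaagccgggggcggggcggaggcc
Ciart: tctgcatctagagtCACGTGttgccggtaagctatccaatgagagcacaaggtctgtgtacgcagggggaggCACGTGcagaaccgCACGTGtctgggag
Tef: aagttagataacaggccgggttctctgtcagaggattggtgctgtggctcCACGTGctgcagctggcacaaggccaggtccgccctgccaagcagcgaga

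The clock repressors Per2, Cry1 and Ciart, the clock outputs Tef, Nampt and Gys2 and the lipid genes G0s2, Fads2, Acot1 and Acot2 were lower after morning PHx. The clock activator Npas2, the tubulins Tubb6, Tubb4b and Tuba4a, the antioxidant gene Srxn1 and the lipopolysaccharide coreceptor Cd14 were higher. Of 9774 genes tested, 77 (0.788%) had an adjusted p under 0.05 (limma, Benjamini-Hochberg), here named called. Of these, 34 (0.348%) were higher and 43 (0.44%) lower in the morning livers, and in all 77 the 3 morning values lay apart from the 3 night values. Groups that did not overlap were common, however, in 1885 of 9774 genes (19.3%). In total 1274 genes had an unadjusted p under 0.05. On the read counts recovered from the same table, edgeR called 88 of 11715 genes (0.751%) and DESeq2 435 of 11724 (3.71%; 1.66% higher and 2.05% lower). Of the 75 called genes that have such counts, edgeR called 66 and DESeq2 all 75. The number of calls depended on which library was left out. Without morning replicate 1, 2 or 3, limma called 38, 21 or 35 genes and edgeR 104, 36 or 100. Without night replicate 3, which leaves the libraries of 1 flow cell, limma called 1 gene and edgeR 29, 20 of them among the 77. Without night replicate 1 or night replicate 2 limma called 0, with 908 and 895 genes at an unadjusted p under 0.05. EdgeR then called 0 and 1, with 1004 and 1059 genes at an unadjusted p under 0.05. Since no called gene overlapped, its sign could not turn in these fits, and the changes were 0.79 to 1.209 times the reported ones. Every call named below is thus lost in limma without night replicate 1 or night replicate 2.

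**Figure D1:**
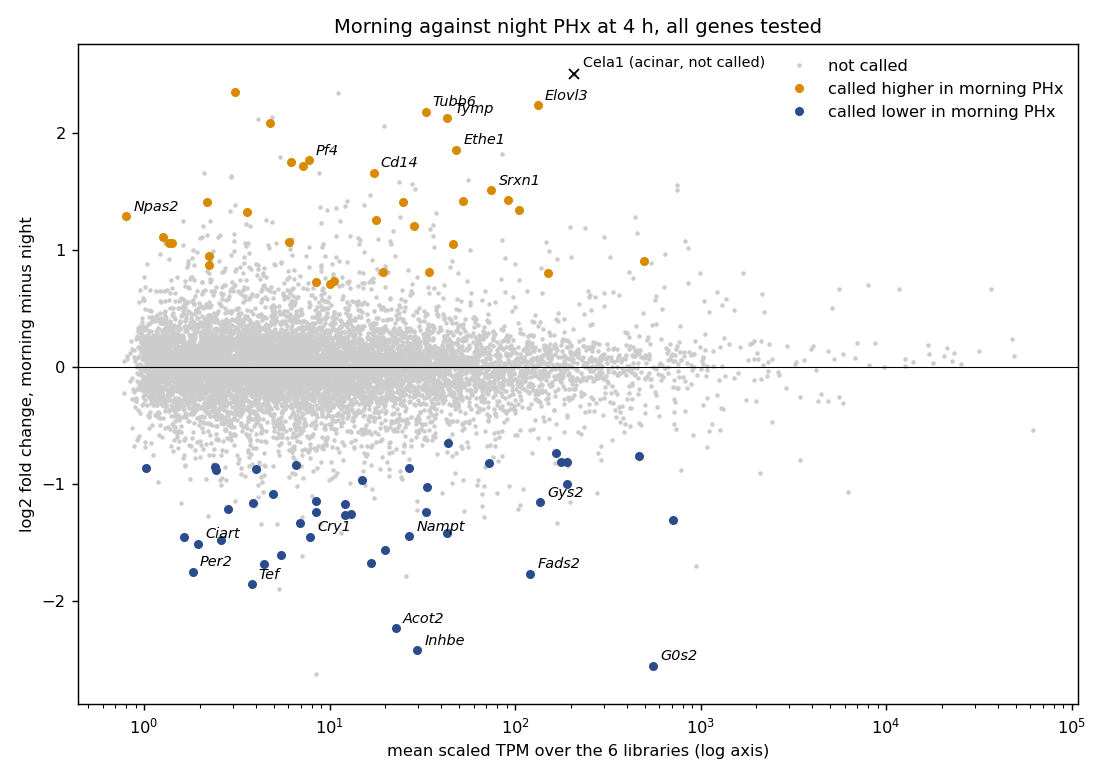
Change against level for the 9774 genes tested 4 h after PHx. The horizontal axis is the mean scaled TPM over the 6 libraries on a log axis, the vertical axis the log2 fold change, morning minus night. Orange points are the 34 genes called higher and blue points the 43 called lower in morning PHx, and the cross is the acinar gene Cela1, which is high in 1 morning library alone and was not called.

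Among the clock activators, Npas2 was called higher in the morning livers. Npas2, the partner of BMAL1 that can stand in for CLOCK, was at 1.13, 1.73 and 1.84 scaled TPM in the morning libraries and 0, 0.105 and 0.0271 in the night libraries. The reads were 70, 116 and 120 in the morning libraries and 0, 8 and 2 in the night libraries. Every night library was thus close to 0, and the change was 1.29 ± 0.15 (± SE here and below, n = 3 each; limma, adjusted p = 0.0229). Npas2 passed the filter on low values through its morning libraries alone, so its being tested depended on a high morning level. Without morning replicate 3 it was not tested by limma. In edgeR its adjusted p was 0.0236, and 0.1005 without night replicate 3. Arntl was at 3.94, 5.22 and 3.11 scaled TPM in the morning libraries and 1.45, 1.85 and 3.67 in the night libraries. Night replicate 3 lay within the morning range, and Arntl was not called (0.65 ± 0.26, limma, adjusted p = 0.346). Clock (0.29) and Rora (0.25, and -0.04 without morning replicate 1) were not called either.

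Among the repressors, 3 of 9 genes tested were called, all lower in the morning livers, against 0.44% of all genes called lower. Of these 3, Per2 and Ciart passed the filter on low values through their night libraries alone. Their being tested thus depended on a high night level, and the count of 3 is not support for a change of the list. The median of the list was -0.92, against 0.003 over all genes tested. It was -0.70 without morning replicate 3, and -0.24 without night replicate 3, when Per2 and Ciart fall under the filter on low values. Per2, which represses the CLOCK and BMAL1 pair together with the CRY proteins, was at 0.385, 0.225 and 0.244 scaled TPM in the morning libraries and 3.96, 2.47 and 3.70 in the night libraries. Its reads were 30, 19 and 20 in the morning libraries and 383, 237 and 343 in the night libraries, a change of -3.56 on the log2 count scale (edgeR, adjusted p = 0.0103). On the scale of scaled TPM + 1 the change was -1.75 ± 0.17 (limma, adjusted p = 0.0179). The second repressor called, Cry1, was at 3.90, 4.02 and 3.13 scaled TPM in the morning libraries and 9.98, 10.8 and 15.1 in the night libraries, a change of -1.45 ± 0.18 (limma, adjusted p = 0.0229). Ciart, which encodes the repressor CHRONO, was at 0.926, 0.342 and 0.293 scaled TPM in the morning libraries and 4.82, 2.70 and 2.62 in the night libraries (-1.51 ± 0.24, limma, adjusted p = 0.039). In edgeR its adjusted p was 0.0517. All 3 were low in every morning liver. Cry2, the paralogue of Cry1, was lower in all 3 morning libraries (1.40, 2.52 and 2.06 scaled TPM, against 4.51, 5.33 and 4.04 in the night libraries) without passing the test (-0.92 ± 0.18, limma, adjusted p = 0.0789).

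The other repressors were less uniform. Nr1d1 (REV-ERB alpha) was at 14.5, 1.62 and 2.32 scaled TPM in the morning libraries and 2.01, 1.17 and 0.675 in the night libraries. Morning replicate 1 stood above all other libraries, and the change of 1.21 ± 0.61 was not called (limma, adjusted p = 0.454). Nr1d2 (REV-ERB beta) was at 10.4, 3.49 and 2.07 scaled TPM in the morning libraries and 11.8, 12.5 and 8.00 in the night libraries. Morning replicate 1 again had the highest morning value, which lay within the night range (-1.10 ± 0.43, limma, adjusted p = 0.335; -0.70 without morning replicate 3). Both REV-ERB genes thus differed most among the morning livers themselves. Per1 was at 2.75, 2.11 and 1.95 scaled TPM in the morning libraries and 2.85, 2.81 and 3.45 in the night libraries (-0.31 ± 0.15, limma, adjusted p = 0.439). Nfil3 (-0.12), a repressor of D-box genes, and Bhlhe40 (0.12), which competes for E-boxes, were not called, and both change sign without morning replicate 1 (0.11 and -0.27). Per3 and Bhlhe41 were too low for the limma filter. Per3 had 4, 8 and 0 reads in the morning libraries and 71, 59 and 30 in the night libraries (-3.47 on the count scale, edgeR, adjusted p = 0.0941).

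**Figure D2:**
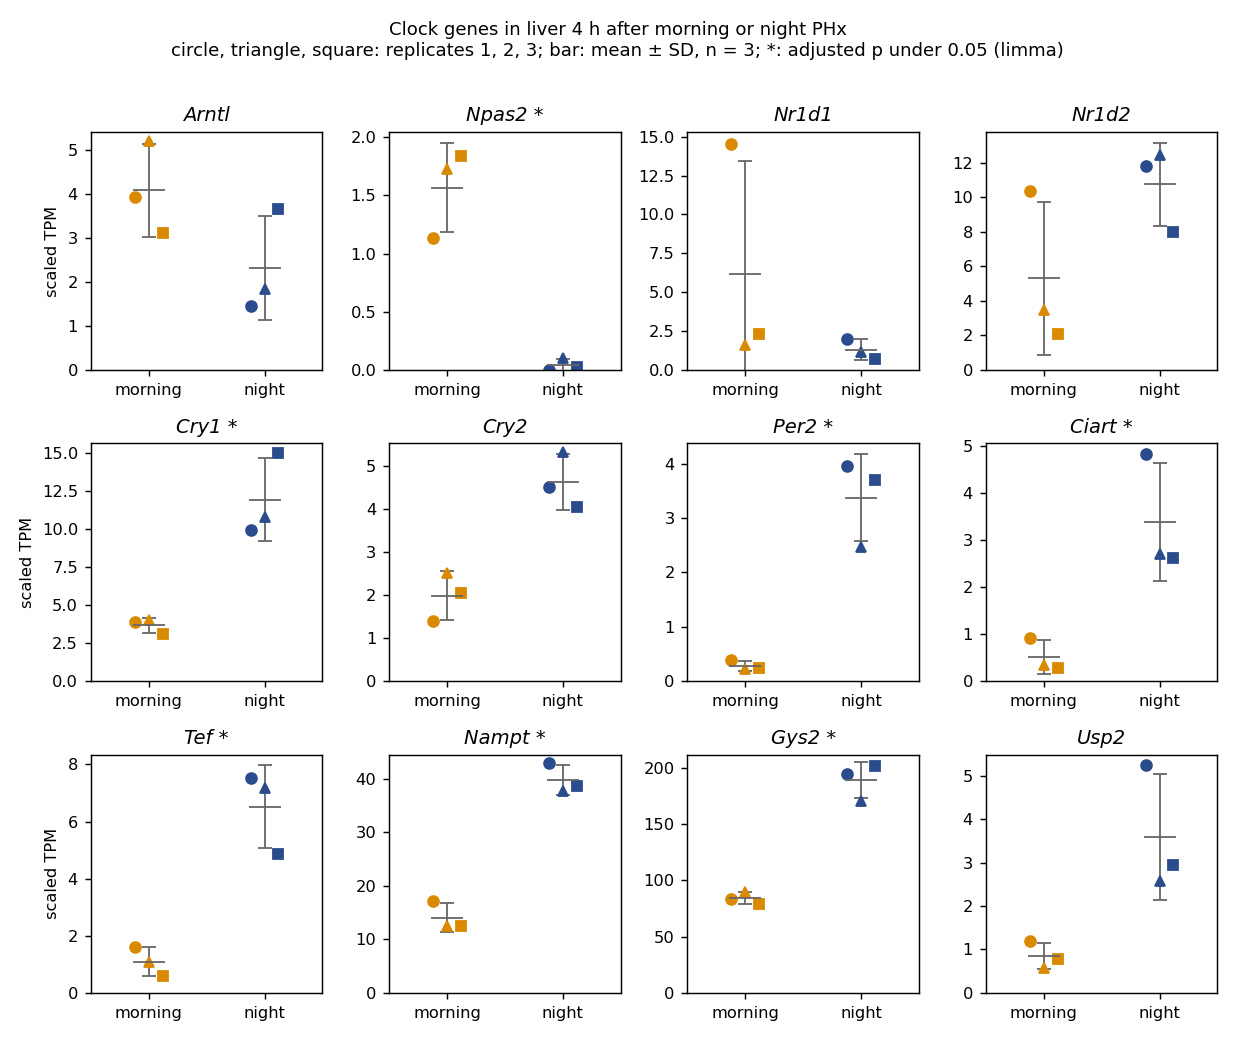
Scaled TPM of 12 clock genes in each library 4 h after PHx, morning livers on the left and night livers on the right of each panel. Points are libraries, the horizontal line and bar are the mean ± SD of 3 libraries (the lower bar of Nr1d1 ends at 0), and an asterisk marks an adjusted p under 0.05. Cry1, Per2, Ciart, Tef, Nampt and Gys2 are low in every morning library, Npas2 is near 0 in every night library, and Nr1d1 is high in morning replicate 1 alone.

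Of 13 clock outputs tested, 3 were called, all lower in the morning livers, against 0.44% of all genes called lower. The change was negative in 12, and in 10 the morning values lay below all night values, against 10.2% of all genes. Of these 10, Wee1 passed the filter on low values through its night libraries alone. The median was -1.08, or -0.76 without morning replicate 3. Tef, a PAR bZIP activator of detoxification genes, was at 1.60, 1.07 and 0.583 scaled TPM in the morning libraries and 7.53, 7.16 and 4.86 in the night libraries (-1.86 ± 0.23, limma, adjusted p = 0.0229). Nampt, the rate-limiting enzyme of NAD salvage, was at 17.2, 12.4 and 12.6 scaled TPM in the morning libraries and 42.9, 37.7 and 38.6 in the night libraries (-1.45 ± 0.15, limma, adjusted p = 0.0179). Gys2, the liver glycogen synthase, was at 83.7, 89.8 and 78.9 scaled TPM in the morning libraries and 195, 171 and 202 in the night libraries (-1.16 ± 0.12, limma, adjusted p = 0.0179). In these 3 genes each night library exceeded every morning library. Usp2, a deubiquitinating enzyme, was at 1.18, 0.584 and 0.785 scaled TPM in the morning libraries and 5.24, 2.58 and 2.94 in the night libraries. It missed the threshold in limma (-1.28 ± 0.23, adjusted p = 0.0619) and passed it in edgeR (adjusted p = 0.0424). Rgs16 (-1.42), a regulator of G protein signalling, Upp2 (-1.18), a uridine phosphorylase, Por (-1.08), the electron donor of the cytochromes P450, Hlf (-0.85), Wee1 (-0.68), a kinase that holds back mitosis, and Noct (-0.56), a deadenylase-related protein, were lower in all morning libraries and not called (limma, adjusted p = 0.0818 to 0.17). Alas1 (-0.55), the first enzyme of haem synthesis, and Tspan4 (-0.24) overlapped between the groups, as did Tfrc (0.69), the transferrin receptor and the 1 output gene with a positive change. Without morning replicate 3 the change was -0.74 for Por and -0.19 for Alas1. Dbp had 18, 5 and 22 reads in the morning libraries and 47, 34 and 25 in the night libraries. It was under the limma filter, with 1.12 scaled TPM in night replicate 1 and less than 1 in every other library. Lonrf3 was under the filter as well.

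Genes of lipid handling were among the largest called decreases. G0s2, an inhibitor of the lipase that opens lipid droplets, was at 137, 261 and 108 scaled TPM in the morning libraries and 1100, 735 and 994 in the night libraries. Its change of -2.56 ± 0.31 (limma, adjusted p = 0.0229) was the largest decrease among the genes called. Fads2, a desaturase of polyunsaturated fatty acids, was at 59.7, 62.1 and 40.4 scaled TPM in the morning libraries and 223, 193 and 143 in the night libraries (-1.77 ± 0.22, limma, adjusted p = 0.0229). Both genes were low in every morning liver. Elovl3, a fatty acid elongase known in mouse liver for a strong daily rhythm, went the other way. Its values were 252, 198 and 195 scaled TPM in the morning libraries and 31.3, 32.5 and 86.2 in the night libraries, the highest of them in night replicate 3 (2.24 ± 0.36, limma, adjusted p = 0.039).

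Among 20 fatty acid oxidation genes tested, 4 were called lower (against 0.44% of all genes) and none higher, 19 had a negative change, and the median was -0.35. In 12 of the 20 the morning values lay below all night values, against 10.2% of all genes. Acot2 and Acot1, acyl-CoA thioesterases that PPAR alpha switches on, were at 13.7, 5.82 and 4.35 and at 12.4, 9.76 and 6.96 scaled TPM in the morning libraries. In the night libraries they were at 35.9, 44.1 and 32.6 and at 32.3, 30.4 and 27.4 scaled TPM. The changes were -2.24 ± 0.34 for Acot2 and -1.56 ± 0.19 for Acot1 (limma, adjusted p = 0.039 and 0.0229). The 2 paralogues are close in sequence, and since the counting rule is not given in the sources used here, reads shared between them may be divided either way. Ppara, the nuclear receptor that drives fatty acid oxidation, was at 5.75, 8.76 and 5.62 scaled TPM in the morning libraries and 13.6, 21.5 and 17.4 in the night libraries (-1.27 ± 0.21, limma, adjusted p = 0.0489). The fourth, Cyp4a14, a fatty acid omega-hydroxylase and PPAR alpha target, was at 136, 134 and 108 scaled TPM in the morning libraries and 233, 242 and 288 in the night libraries (-1.003 ± 0.14, limma, adjusted p = 0.0328). All 4 were lower in each morning library than in any night library. Ppara is named although it fell outside the rule for named genes.

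Of 14 fatty acid synthesis genes tested, 1 was called, lower in the morning livers (against 0.44% of all genes), and the median was -0.42, or -0.71 without night replicate 3. Pklr, the liver pyruvate kinase, was at 16.7, 21.95 and 19.8 scaled TPM in the morning libraries and 47.0, 46.9 and 47.1 in the night libraries (-1.24 ± 0.13, limma, adjusted p = 0.0179). The night livers were nearly equal. Elovl6, an elongase of saturated fatty acids (-1.08 ± 0.24, limma, adjusted p = 0.0992), and Elovl5, an elongase of polyunsaturated ones (0.60 ± 0.14, limma, adjusted p = 0.123), were not called. Of 22 cholesterol synthesis genes tested none was called. Their median was 0.22, but 0.45 without morning replicate 3 and -0.13 without night replicate 3. Hmgcs1, the synthase before HMG-CoA reductase, was at 143, 54.2 and 52.0 scaled TPM in the morning libraries and 47.6, 28.4 and 9.68 in the night libraries, with a wide spread in both groups (1.60 ± 0.57, limma, adjusted p = 0.288; 0.99 without night replicate 3).

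Inhbe, which encodes the hepatokine subunit inhibin beta E (activin E), had the second largest called decrease. It was at 5.35, 12.3 and 9.36 scaled TPM in the morning libraries and 56.0, 45.2 and 50.4 in the night libraries (-2.43 ± 0.25, limma, adjusted p = 0.0179). In the growth factor list it was the 1 called gene of 15 tested, against 0.44% of all genes called lower. The median of that list was -0.01. Met, the receptor of hepatocyte growth factor, was at 12.8, 11.4 and 9.59 scaled TPM in the morning libraries and 19.0, 19.6 and 19.6 in the night libraries. It was not called by limma (-0.74 ± 0.14, adjusted p = 0.0619) but was by edgeR (adjusted p = 0.0491). The related subunit gene Inhbb was at 15.1, 14.8 and 13.5 scaled TPM in the morning libraries and 8.21, 7.95 and 11.7 in the night libraries and was not called (0.61 ± 0.16, limma, adjusted p = 0.159). A pair of other called genes were lower in all morning libraries. Txnip, a glucose-induced inhibitor of thioredoxin, was at 18.8, 25.4 and 24.1 scaled TPM in the morning libraries and 64.4, 80.9 and 45.8 in the night libraries (-1.42 ± 0.22, limma, adjusted p = 0.039). Wnt5b, a Wnt ligand, was at 4.13, 3.17 and 3.22 scaled TPM in the morning libraries and 11.5, 8.83 and 10.9 in the night libraries (-1.34 ± 0.16, limma, adjusted p = 0.0229).

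Among the genes higher after morning PHx, tubulins were prominent. Tubb6, a beta tubulin of microtubules, was at 70.1, 37.2 and 56.7 scaled TPM in the morning libraries and 7.64, 12.5 and 13.4 in the night libraries (2.18 ± 0.27, limma, adjusted p = 0.0229). Tubb4b, another beta tubulin, was at 148, 102 and 151 scaled TPM in the morning libraries and 49.5, 51.4 and 44.8 in the night libraries (1.42 ± 0.17, limma, adjusted p = 0.0229). The alpha tubulin gene Tuba4a was at 42.6, 24.1 and 44.5 scaled TPM in the morning libraries and 13.7, 11.3 and 13.7 in the night libraries (1.41 ± 0.23, limma, adjusted p = 0.0435). In all 3 the lowest morning value, that of replicate 2, was above every night value. Since these were noticed in the results, the whole family was then read: of 9 tubulin genes tested 8 were positive. Of the 9, 3 were called, against 0.348% of all genes called higher. The groups did not overlap in 6, against 9.09% of all genes not overlapping and higher. The 3 called genes are those that prompted the reading and belong to the 6, so these counts are not support. Of the others, Tubb5, Tubb2a and Tuba1c did not overlap and Tuba1a, Tuba1b and Tubg1 did, and limma called none of them. Tubb2a (1.82 ± 0.33, limma, adjusted p = 0.0592) and Tuba1c (1.09 ± 0.20, limma, adjusted p = 0.0619) passed the threshold in edgeR alone (adjusted p = 0.0428 and 0.0432). Tubg1, the gamma tubulin of the centrosome, was at 29.6, 30.8 and 19.7 scaled TPM in the morning libraries and 28.2, 27.3 and 29.1 in the night libraries (-0.10 ± 0.18, limma, adjusted p = 0.874; 0.10 without morning replicate 3). Tubulin genes are alike in sequence, so reads shared between them may be divided either way.

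The other genes called higher by the naming rule have varied roles. Tymp, a thymidine phosphorylase, was at 99.4, 74.7 and 39.3 scaled TPM in the morning libraries and 11.3, 15.4 and 17.1 in the night libraries (2.13 ± 0.32, limma, adjusted p = 0.0377). Ethe1, a mitochondrial sulfur dioxygenase, was at 74.5, 82.2 and 69.4 scaled TPM in the morning libraries and 30.1, 20.9 and 12.6 in the night libraries (1.86 ± 0.27, limma, adjusted p = 0.0356). In Tymp the 3 morning livers were spread widely, and in Ethe1 the 3 night livers were, yet the groups did not overlap. Srxn1, sulfiredoxin, an antioxidant enzyme and NRF2 target, was at 133, 96.5 and 102 scaled TPM in the morning libraries and 30.5, 48.3 and 36.4 in the night libraries (1.51 ± 0.20, limma, adjusted p = 0.026). Srxn1 was the 1 called gene of 11 in the oxidative stress and metallothionein list, against 0.348% of all genes called higher. The median of that list was 0.21, or 0.51 without morning replicate 3. Hsd3b5, a male-biased hydroxysteroid dehydrogenase of mouse liver, was at 92.4, 71.0 and 68.2 scaled TPM in the morning libraries and 29.0, 27.8 and 27.2 in the night libraries (1.42 ± 0.14, limma, adjusted p = 0.0179). Cyr61, a matricellular protein and target of the YAP coactivator, was at 16.8, 9.44 and 8.79 scaled TPM in the morning libraries and 2.12, 3.18 and 2.95 in the night libraries (1.71 ± 0.24, limma, adjusted p = 0.0328). Hsd3b5 had a narrow range in the night livers, while Cyr61 was highest in morning replicate 1.

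**Figure D3:**
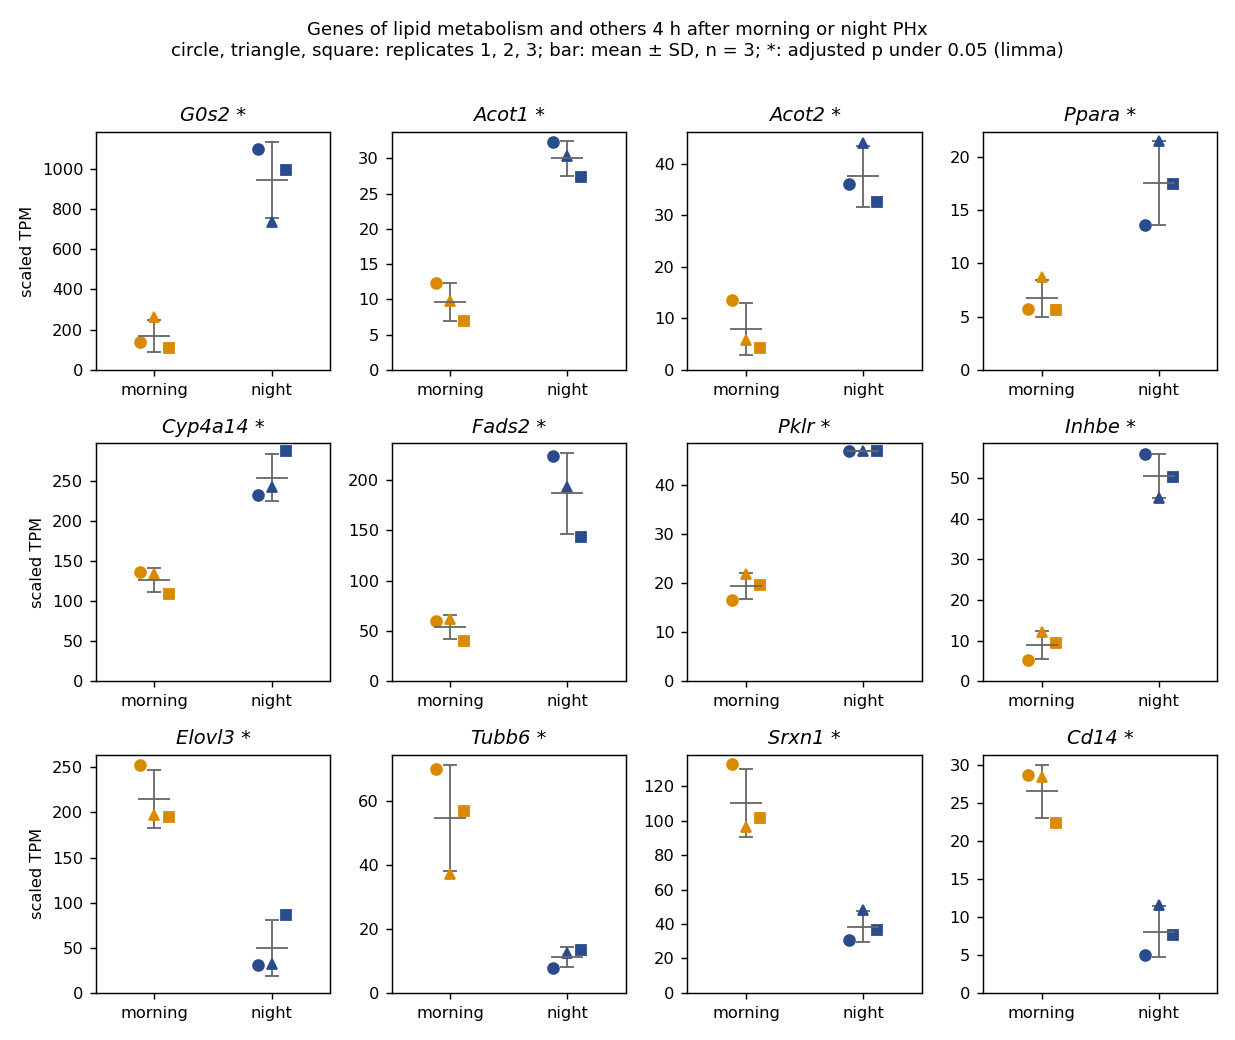
Scaled TPM of 12 genes outside the clock lists in each library 4 h after PHx, morning livers on the left and night livers on the right of each panel. Points are libraries, the line and bar are the mean ± SD of 3 libraries, and all 12 had an adjusted p under 0.05. The first 8 genes, from G0s2 to Inhbe, are low in every morning library, and Elovl3, Tubb6, Srxn1 and Cd14 are high in every morning library.

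Cd14 and Pf4 have known sources outside hepatocytes. Cd14, a coreceptor for bacterial lipopolysaccharide that macrophages carry and injured hepatocytes can make, was at 28.6, 28.4 and 22.4 scaled TPM in the morning libraries and 4.99, 11.6 and 7.60 in the night libraries (1.66 ± 0.26, limma, adjusted p = 0.039). It was the 1 called gene of 19 in the list of IL-6 and NF-kB feedback genes, against 0.348% of all genes called higher. The median of that list was 0.16. Pf4, a chemokine stored in platelets, was at 9.47, 8.28 and 20.3 scaled TPM in the morning libraries and 2.73, 3.23 and 2.34 in the night libraries. The highest value was in morning replicate 3, the library with acinar transcripts. The change was 1.77 ± 0.30 (limma, adjusted p = 0.0495; edgeR, adjusted p = 0.0517), and 1.40 without that library (limma, adjusted p = 0.0339). In whole liver, more cells of a type and more RNA per cell cannot be told apart. None of 14 Kupffer cell and macrophage markers tested was called, with a median of 0.11, or 0.23 without morning replicate 3 and 0.25 without night replicate 3. Their summed level was 342 to 430 scaled TPM in the morning libraries and 321 to 385 in the night libraries. The change was positive in 12 of the 14 markers and negative in 2. In 2 of them, Clec4f (0.38) and C1qb (0.32), the morning values lay above all night values, against 9.09% of all genes. Neither was called. All 7 neutrophil and monocyte markers tested had a positive change, 4 without overlap (against 9.09% of all genes not overlapping and higher), none was called, and the median was 0.84, or 0.56 without morning replicate 3. Their summed level was 114, 98.5 and 152 scaled TPM in the morning libraries and 67.0, 92.4 and 68.3 in the night libraries. S100a9, a calcium-binding protein abundant in neutrophils, was at 25.7, 26.1 and 39.3 scaled TPM in the morning libraries and 11.4, 20.3 and 8.89 in the night libraries (1.16 ± 0.29, limma, adjusted p = 0.134). The decoy receptor Il1r2 (0.84) and the chemokine receptor Cxcr2 (0.41) were not called. The part of immune cells in the Cd14 and Pf4 results was not tested.

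No marker of sinusoidal endothelium (16 tested, median -0.01), stellate cells (10, median -0.15), bile duct cells (5, median 0.33) or erythroid cells (5, median 0.16) was called. Without morning replicate 3 these medians were -0.11, -0.47, -0.04 and 0.03, in the same order. Morning replicate 3 had the highest sum of stellate markers, 195 scaled TPM, against 45.9 and 99.5 in morning replicates 1 and 2 and 90.3 to 109 in the night libraries. It also had the highest sum of bile duct markers, 155 scaled TPM, against 79.7 and 84.1 in morning replicates 1 and 2 and 72.2 to 79.8 in the night libraries. Of the 77 called genes, 28 were also called by limma and 56 by edgeR without this library. Cela1 had a change of 2.50 with it and 0.29 without it and was not called in either fit. Among 19 hepatocyte identity genes tested none was called and the median was 0.01.

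Genes of the first response to PHx did not pass the test. Of 19 immediate early genes tested none was called, though 16 were positive, 6 did not overlap (against 9.09% of all genes not overlapping and higher), and the median was 0.45. Egr1, a zinc finger factor induced within minutes by growth signals, was at 65.2, 29.7 and 35.9 scaled TPM in the morning libraries and 18.6, 11.03 and 12.5 in the night libraries (1.52 ± 0.30, limma, adjusted p = 0.0816). Ier2, another early transcriptional regulator, was at 40.4, 17.6 and 17.9 scaled TPM in the morning libraries and 6.57, 7.84 and 9.22 in the night libraries (1.47 ± 0.30, limma, adjusted p = 0.0877). In both genes morning replicate 1 was the highest library and no values overlapped. Fos, a subunit of AP-1, was at 13.4, 5.83 and 3.24 scaled TPM in the morning libraries and 2.65, 1.17 and 3.01 in the night libraries (1.24 ± 0.43, limma, adjusted p = 0.267). Ier5 (0.66), the AP-1 subunit Junb (0.32) and Myc (0.45), a driver of growth, were not called either, nor were the cyclin D gene Ccnd1 (0.70) and the cell cycle inhibitor Cdkn1a (0.74). Of 22 acute phase genes tested none was called, and the median was -0.08, or -0.25 without morning replicate 3 and 0.03 without night replicate 3. Saa2, a serum amyloid A, was at 2896, 2896 and 6196 scaled TPM in the morning libraries and 3983, 4131 and 5791 in the night libraries (-0.29 ± 0.31, limma, adjusted p = 0.778; -0.66 without morning replicate 3). The iron carrier binding protein Lcn2 (-0.35, and -0.68 without morning replicate 3), the iron hormone hepcidin (Hamp, -1.07, and -1.60 without morning replicate 3), the acid glycoprotein Orm2 (-0.85) and ceruloplasmin (Cp, 0.49) were not called.

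**Figure D4:**
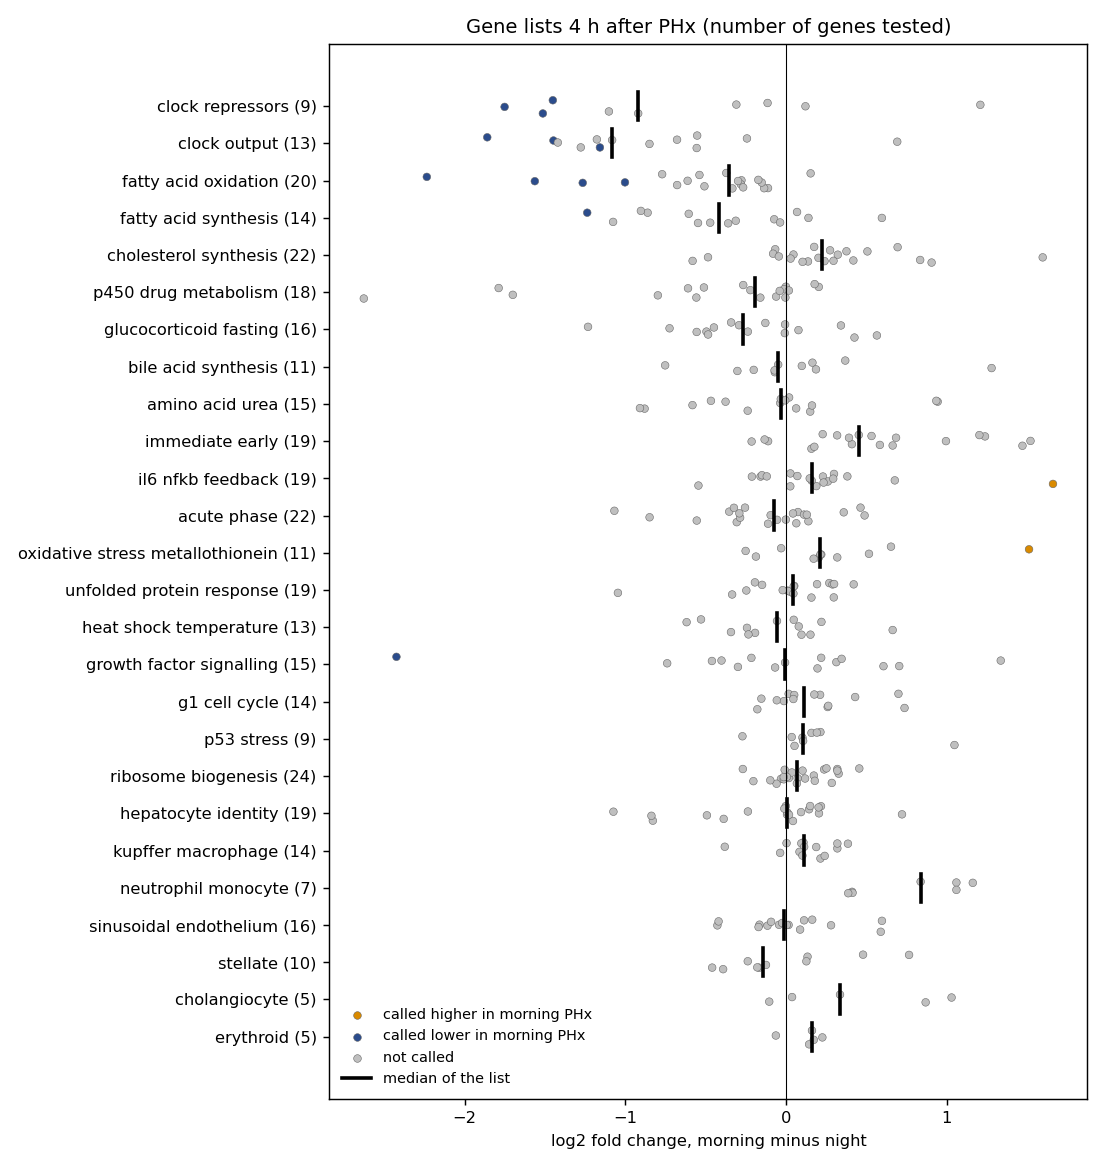
Log2 fold change, morning minus night, of the tested genes of 26 lists 4 h after PHx (number tested in brackets). Points are genes, coloured where called, and the black line is the median of the list. The clock repressors (median -0.92, and -0.24 without night replicate 3) lie mostly to the left of 0. So do the clock outputs (median -1.08, and -0.76 without morning replicate 3). The fatty acid oxidation genes (median -0.35) and fatty acid synthesis genes (median -0.42) are also mostly to the left. To the right are the medians of the neutrophil and monocyte (0.84), immediate early (0.45) and bile duct (0.33) lists. Without morning replicate 3 the bile duct median is -0.04. The medians of the other lists are nearer 0.

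None of the tested genes was called in the lists of P450 drug metabolism (18, median -0.19), glucocorticoid and fasting response (16, median -0.27), bile acid synthesis (11, median -0.05), amino acid and urea metabolism (15, median -0.03), the unfolded protein response (19, median 0.04), G1 cell cycle (14, median 0.11) or ribosome biogenesis (24, median 0.07). Their medians lay between -0.19 and 0.15 without morning replicate 3 and between -0.26 and 0.18 without night replicate 3. Of the 18 P450 genes, 15 had a negative and 3 a positive change. In 6 of them the morning values lay below all night values, against 10.2% of all genes. Of the 14 G1 genes, 10 had a positive and 4 a negative change. In 5 of them the morning values lay above all night values, against 9.09% of all genes. Single members came close. Cyp2a5, the mouse coumarin hydroxylase, was at 513, 609 and 260 scaled TPM in the morning libraries and 1449, 1183 and 1633 in the night libraries. It missed the threshold in limma (-1.70 ± 0.30, adjusted p = 0.0592) and passed it in edgeR (adjusted p = 0.0432). Without morning replicate 3, the lowest library, Cyp2a5 was called by limma at -1.33 (adjusted p = 0.0457). Cyp2e1 (-0.80) and Cyp3a13 (-0.61) were lower, and Agxt (0.94), which detoxifies glyoxylate, and the bile salt pump Abcb11 (1.07) higher, in all morning libraries without being called. The ER stress gene Herpud1 (-1.05) was lower in all morning libraries, as were Pck1 (-0.49), an enzyme of gluconeogenesis, and Cyp7a1 (-0.75), which limits the rate at which bile acids are made, and the insulin-regulated Igfbp1 (0.56) was higher, none of them called. G6pc (-0.56), the last enzyme of gluconeogenesis, overlapped between the groups.

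Sham-operated livers 4 h after a morning and after a night operation give the same hours without resection, but the library labelled replicate 3 did not sit with its group in either of them. Tef was at 12.1, 12.0 and 35.4 TPM in the libraries labelled morning and 35.2, 38.4 and 13.3 TPM in those labelled night. Elovl3 was at 269, 140 and 39.9 TPM in the libraries labelled morning and 21.0, 14.8 and 176 TPM in those labelled night. In both genes the library labelled morning replicate 3 had a value close to night replicates 1 and 2, and the library labelled night replicate 3 one close to morning replicates 1 and 2. The same held for Por, at 79.3, 93.7 and 361 TPM in the libraries labelled morning and 364, 320 and 104 TPM in those labelled night, and for Nampt, at 25.2, 17.6 and 52.2 TPM in those labelled morning and 42.4, 49.5 and 15.0 TPM in those labelled night. Of 69 of the 77 called genes that were tested in sham, the library labelled morning replicate 3 lay nearer to night replicates 1 and 2 in 56 (81.2%), against 56.9% of all genes. The library labelled night replicate 3 lay nearer to morning replicates 1 and 2 in 52 (75.4%), against 53.8% of all genes. With the labels as given, limma called 0 of 11391 genes in sham (667 at an unadjusted p under 0.05). It also called 0 without morning replicate 3 and 0 without night replicate 3 (1116 and 801 at an unadjusted p under 0.05). No fit left out both, so each of these fits still held the other library under its label. With the same labels, 49 of the 69 genes had the same sign in sham as after PHx, and 3 of these an unadjusted p under 0.05. The share of all genes with the same sign was not taken, so this count is not a measure of likeness. The sham libraries were normalised apart and carry another series of library IDs, so the difference between sham and PHx was not tested.

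Other genes are given here in the sham livers for comparison. Tubb6 was at 3.51, 4.84 and 1.75 TPM in the sham libraries labelled morning and 2.41, 2.90 and 4.34 TPM in those labelled night. Srxn1 was at 14.7, 18.1 and 13.1 TPM in those labelled morning and 11.3, 19.6 and 22.2 TPM in those labelled night. Both genes overlapped between the labelled groups, and in Tubb6 the library labelled morning replicate 3 had the lowest value. Per2 was at 3.58, 1.45 and 12.7 TPM in the sham libraries labelled morning and 7.66, 13.1 and 2.44 TPM in those labelled night. The sham values of Cry1, at 22.7, 8.40 and 19.9 TPM in those labelled morning and 11.5, 14.0 and 10.3 TPM in those labelled night, overlapped as well.

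Livers taken 24 h after PHx allow the operation hours to be compared again at the hour of the operation itself, in counts. In these 6 libraries edgeR called 42 of 12658 genes (0.332%), 32 (0.253%) higher and 10 (0.079%) lower in the morning livers. Of the 77 genes called at 4 h, 74 were tested at 24 h, 54 with the same sign. The share of all genes with the same sign was not taken here either. The 2 sets of calls shared 6 genes with the same sign (7.79% of the 77 and 14.3% of the 42), namely Npas2, Per2, Ciart, Tef, Elovl3 and Tubb6. At 24 h their log2 changes in counts were 3.94 for Npas2, -1.40 for Per2, -4.46 for Ciart, -1.99 for Tef, 2.16 for Elovl3 and 1.18 for Tubb6 (edgeR, adjusted p = 0.0022, 0.032, 0.012, 0.00048, 0.0238 and 0.0376). These are 5 genes of the daily rhythm and a tubulin. Nr1d2 (-2.63), Per1 (-1.84), Per3 (-2.72) and Usp2 (-2.07) were also called lower at 24 h (edgeR, adjusted p = 0.0022, 0.0238, 0.0211 and 0.0122). The count at 24 h moved with each library left out, to 21, 9 and 16 without morning replicates 1, 2 and 3 and to 17, 193 and 73 without night replicates 1, 2 and 3.

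The difference between the changes at 4 h and at 24 h was tested itself, in 1 edgeR fit of the 12 PHx libraries. It was called for 20 of 11638 genes (0.172%), 16 (0.137%) with a lower and 4 (0.0344%) with a higher morning minus night change at 4 h. The count moved to between 2 and 19 without 1 of the libraries, except that it was 102 without 24 h night replicate 2. Of these 20 genes Cry1 had the largest difference, -2.99 (adjusted p = 0.00126), the 1 gene called with opposite signs at the 2 times. At 24 h Cry1 was at 31.6, 30.6 and 33.96 counts scaled to library size (CPM) in the morning libraries and 17.6, 10.4 and 11.7 CPM in the night libraries, so that each morning liver was above each night liver (1.27, edgeR, adjusted p = 0.0295), the reverse of the order at 4 h. The difference of Cry1 lay between -3.25 and -2.78 and stayed called without any 1 of the 12 libraries. Gys2 (-1.35, adjusted p = 0.0257), lower at 4 h, overlapped at 24 h. It was then at 90.1, 89.4 and 76.4 CPM in the morning libraries and 70.3, 92.3 and 65.2 CPM in the night libraries. Per2 was lower at both times, and more so at 4 h (difference -2.18, adjusted p = 0.0491), with 10.8, 7.30 and 8.96 CPM in the morning libraries at 24 h and 26.1, 28.1 and 17.5 CPM in the night libraries.

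Outside the clock, the difference was also called for Inhbe (-1.998, adjusted p = 0.0498), Pklr (-1.69, adjusted p = 0.0257), Tubb4b (1.24, adjusted p = 0.0491) and Tuba4a (1.49, adjusted p = 0.0498), again in edgeR. At 24 h Pklr was at 31.8, 27.1 and 25.9 CPM in the morning libraries and 22.9, 26.5 and 14.5 CPM in the night libraries. Tuba4a was at 124, 129 and 133 CPM in the morning libraries and 122, 128 and 131 CPM in the night libraries. Both tubulins and Pklr thus had at 24 h no difference as large as at 4 h. The difference was tested again in 12 fits that each leave out 1 library. It remained called in 4 of them for Gys2, 4 for Pklr, 3 for Per2, 3 for Inhbe, 2 for Tubb4b and 2 for Tuba4a. For the death receptor Fas (-1.54, edgeR, adjusted p = 0.00613) it remained called in all 12, as for Cry1. No difference was called for Npas2 (1.16), Tef (-0.61), Nampt (-0.62), Elovl3 (-0.07) or G0s2 (-1.70, edgeR, adjusted p = 0.114). A p that misses the threshold does not show that the changes were alike at both times.

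**Figure D5:**
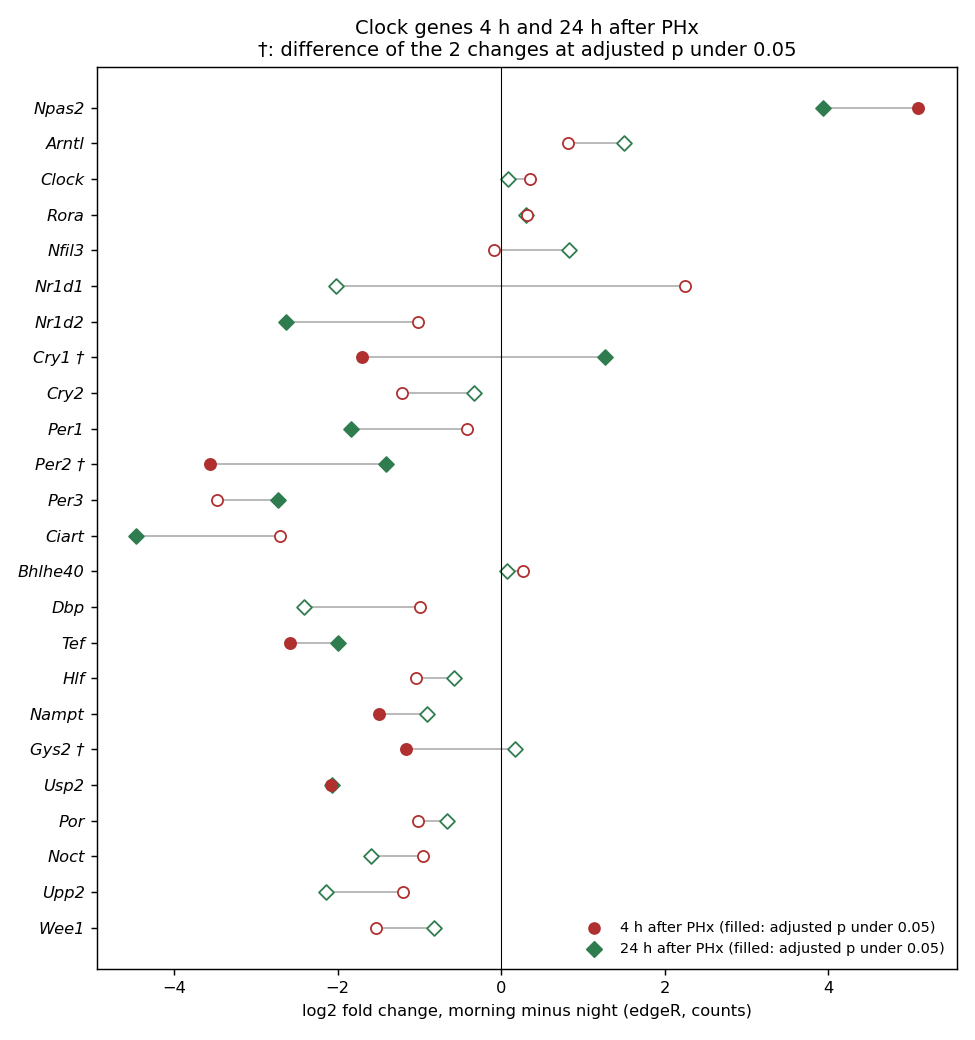
Log2 fold change of counts, morning minus night, of 24 clock genes 4 h (circles) and 24 h (diamonds) after PHx, edgeR. Filled marks have an adjusted p under 0.05 at that time, and daggers mark genes whose 2 changes differ at an adjusted p under 0.05. Cry1 lies at -1.70 at 4 h and 1.27 at 24 h, while Npas2, Per2 and Tef keep their side of 0.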

How the data were processed

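Liver polyA RNA was sequenced on a NovaSeq instrument after SMART-RNAseq library preparation, per the labels. Reads were handled with fastp 0.20.0 and HISAT2 2.1.0, per the submitters' processing notes. How reads were counted, and on which of the listed builds and annotation, is not given in the sources used here. The 4 h PHx table was deposited by the authors as a signal headed TPM that is not scaled to depth. Divided by the gene constants of the 24 h table, 100% of its values are whole reads within 0.01, for 11724 of 11840 genes. The 24 h table was deposited as read counts and the 4 h sham table as TPM. The time course was deposited by the authors on a log2 scale and used for the acinar genes alone. Beyond the labelled samples, 6 columns match no label and were not used. The authors' fold changes and calls were not used.

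The signal was divided by library total and TMM factor (edgeR 4.0.16), scaled to totals of 1000000 and log2-transformed with a pseudocount of 1. It was tested two-sided with limma 3.58.1 (R 4.3.3; moderated test with an intensity trend), for genes of at least 1 in at least 3 of the 6 libraries. Sham TPM were tested alike without TMM. Counts at 24 h, and the difference of 4 h and 24 h, were tested with edgeR's quasi-likelihood test. DESeq2 1.42.0 and edgeR on recovered reads, another pseudocount (0.1), no filter, other scalings, a replicate block and leaving out each library were alternatives. P-values were adjusted by Benjamini-Hochberg over all genes tested, and rest on the spread between 3 mice per group. The statistics were tested on simulated data.

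Named genes are the 10 largest called rises and falls among genes above the median level, without overlap and outside markers of other cells, the clock lists, the best members of the other lists, and set genes. The members and lists were chosen with earlier results of these data known. Symbols for 516 IDs come from GENCODE vM21, promoters from RefSeq. Some genes are not reported here.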

Additional observations from a re-analysis of the deposited data

Results flagged for a closer look

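The results set apart here are those whose morning minus night change differed between 4 h and 24 h after PHx in a test of the difference itself (edgeR interaction, adjusted p under 0.05). There were 20 such genes of 11638. Among the genes named above, the differences, 4 h minus 24 h, were -2.99 for Cry1, -2.18 for Per2 and -1.35 for Gys2 in the clock lists. They were -1.998 for Inhbe, -1.69 for Pklr, 1.24 for Tubb4b, 1.49 for Tuba4a and -1.54 for the death receptor Fas outside them. Livers of the 2 times were taken at other hours of the day, so the time after PHx and the time of day cannot be told apart. Groups of 3 are too small for a formal test of single outlying values, and none was run.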

How the results depend on the processing

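The 77 genes called at 4 h became 66 to 93 with another pseudocount, filter or scaling, 88 with edgeR and 435 with DESeq2. Scaling by library total gave 35 higher and 58 lower, against 34 and 43, and moved the median of all genes to -0.04. The split was 10 and 28 without morning replicate 1, 10 and 25 without morning replicate 3, and 3 and 9 with the replicate block. Leaving out 1 library gave 0 to 38 calls in limma and, chosen after seeing the data, 0, 1, 29, 36, 100 or 104 in edgeR. With a replicate block 12 genes were called; the numbers did not pair the samples (correlations of -0.02, 0.05 and 0.14 between same-numbered libraries). In sham 0 genes were called, and 0 to 2 with 1 library left out. The difference of 4 h and 24 h (20 calls) gave 136 with DESeq2, 2 with the replicate block and 2 to 102 with 1 library left out. For 24 h (42 calls) these were 253, 14 and 9 to 193. Among 93 named genes, 1374 of 1751 values at 4 h kept direction and side of the threshold, 313 lost a call, 55 gained one and 9 changed sign; no scaling changed a sign. With 1 library left out, Rora lay at -0.040 to 0.459, Bhlhe40 at -0.270 to 0.521 and Nfil3 at -0.286 to 0.113, changing sign without morning replicate 1. In edgeR without that library they were at -0.080, -0.215 and 0.115, and Nfil3 was at 0.034 without night replicate 3. Tubg1 lay at -0.214 to 0.096 with 1 library left out, positive without morning replicate 3 (0.099 in edgeR). The cause was not tested. With 3 mice a group, low genes such as Dbp and Per3 are limited by their reads.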

Other observations

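Other called genes fell outside the rule for named genes and are given as values, chosen after they were seen (scaled TPM, limma). Nmrk1, a nicotinamide riboside kinase of NAD synthesis, changed by -1.61, Mgll, the lipase of monoacylglycerols, by -1.03, Stard5, a sterol carrier, by -1.24, and the death receptor Fas by -0.83. Rsad2, the interferon-induced antiviral protein viperin, changed by 1.41, Plaur, the urokinase receptor, by 1.33, the tight junction gene Cldn1 by 1.07 and Cbs, an enzyme of sulfur amino acid metabolism, by 0.80. The adjusted p of these genes were 0.0263, 0.039, 0.0249 and 0.0356 for Nmrk1, Mgll, Stard5 and Fas, and 0.039, 0.0424, 0.039 and 0.0431 for Rsad2, Plaur, Cldn1 and Cbs. EdgeR called all 8, and in each the morning and the night values lay apart.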
